A study of Homo sapiens with 12 samples.

Results

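The genes described here are the 4 interleukin-1 receptor-associated kinases (IRAK1, IRAK2, IRAK3 and IRAK4) and 6 proteins that work beside them: the adaptors MYD88 and TIRAP, the ubiquitin ligases TRAF6, PELI1 and PELI2, and TOLLIP. They were chosen by name. All 10 are among the 30017 gene symbols of the count table, and all 10 passed the filter on low counts that left 16010 symbols for testing. RNA was sequenced from THP1 cells, a line of human monocytes from an acute myeloid leukaemia, in 12 libraries that form 4 groups of 3. Wild-type cells had received Cas9 alone and IRAK4 knockout cells Cas9 with a guide RNA against IRAK4. Both were then grown from single cells. Each genotype was held for 12 h in DMSO or in 50 nM CC-885, a small molecule that brings the translation termination factor GSPT1 to the cereblon ubiquitin ligase for degradation. The 4 groups are therefore wild type under DMSO, wild type under CC-885, knockout under DMSO and knockout under CC-885. The number of clones behind each genotype is not given in the sources used here, so the knockout and the choice of clone cannot be told apart. It is also not stated whether replicates were separate cultures, so p-values reflect the spread among these libraries alone.

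When a Toll-like receptor or the interleukin-1 receptor is engaged, MYD88 molecules gather beneath it and recruit IRAK4 through their death domains. IRAK4 in turn brings in IRAK1 or IRAK2, and this assembly is called the myddosome. The IRAKs then engage TRAF6, whose ubiquitin chains activate the kinase TAK1 and, through it, NF-kB and MAP kinases. In monocytes this route carries the response to bacterial products, and IRAK3 and TOLLIP are known as restraints on it.

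Totals ranged from 46903984 to 56675539 counts per library. All 10 monocytic markers had counts in every group, and their summed level was 2846 to 2922 CPM (counts scaled to library totals) in wild type under DMSO, 1725 to 1823 in wild type under CC-885, 3422 to 4428 in knockout under DMSO and 1468 to 1494 in knockout under CC-885. The sum was thus lower under CC-885 in both genotypes, and its part in the results was not tested. Summed markers of T and NK cells reached at most 20.9 CPM, in knockout under DMSO, where NKG7 had a mean of 19.1. There 5 of 7 of these markers had counts, and CD3E and CD3G were at 0 in all groups. Markers of B cells summed to at most 8.61 CPM, in wild type under DMSO, where PAX5 had a mean of 6.19. Of the B cell markers 4 of 5 had counts, and MS4A1 was at 0. Epithelial, stromal and endothelial markers summed to at most 460 CPM, nearly all of it PECAM1, with COL1A2, DCN and CDH5 at 0. Replicate 3 of wild type under CC-885 stood apart from the other libraries of its group. A chi-square statistic over genes divided by its degrees of freedom was 81.2 and 66.4 against those 2 libraries, and 5.31 between them. Without it, 9 and 8 of the 10 genes were called under CC-885 in wild type and knockout, 8 and 7 between genotypes under DMSO and CC-885, and 6 for the difference in response. Over all genes, 11842, 13203, 9260, 9845 and 6872 of 16255 were then called, in the same order. With all libraries the numbers were 11575, 12627, 7958, 9384 and 5562 of 16010. Except for TIRAP and IRAK2, whose values follow, each of the 10 genes kept its call in each comparison without this replicate. For 13 set pathway genes, 60 of 65 values kept their direction and side of the threshold without it, an analysis added after the data were seen. In bulk RNA, fewer cells of a type and less RNA per cell cannot be told apart.

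The DNA before the annotated RefSeq start is given for 4 of the genes, and no start was measured in these cells. Another annotation, GENCODE, places the starts of IRAK2, PELI1 and IRAK4 inside the printed stretches. IRAK2, TRAF6 and PELI1 were called at least 2-fold higher under CC-885 in both genotypes, and IRAK4 is the edited gene. The sequences are the 250 bases before the RefSeq start in GRCh38.p14, 5′ to 3′ on the strand of the gene, with CpG dinucleotides in capitals. IRAK2 is read from the plus strand of chr3:10164669-10164918, TRAF6 from the minus strand of chr11:36510273-36510522, PELI1 from the minus strand of chr2:64144421-64144670 and IRAK4 from the plus strand of chr12:43758701-43758950.
IRAK2: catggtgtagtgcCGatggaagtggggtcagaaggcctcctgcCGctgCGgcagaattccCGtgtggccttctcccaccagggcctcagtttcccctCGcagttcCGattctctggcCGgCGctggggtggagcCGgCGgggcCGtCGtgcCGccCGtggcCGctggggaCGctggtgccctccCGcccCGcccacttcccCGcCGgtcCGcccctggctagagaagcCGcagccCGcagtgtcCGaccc
TRAF6: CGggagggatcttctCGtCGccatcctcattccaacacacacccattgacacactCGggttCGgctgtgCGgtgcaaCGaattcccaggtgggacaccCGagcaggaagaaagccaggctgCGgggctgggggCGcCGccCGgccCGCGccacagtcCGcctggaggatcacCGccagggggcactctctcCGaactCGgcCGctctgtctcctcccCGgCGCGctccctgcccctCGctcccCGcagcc
PELI1: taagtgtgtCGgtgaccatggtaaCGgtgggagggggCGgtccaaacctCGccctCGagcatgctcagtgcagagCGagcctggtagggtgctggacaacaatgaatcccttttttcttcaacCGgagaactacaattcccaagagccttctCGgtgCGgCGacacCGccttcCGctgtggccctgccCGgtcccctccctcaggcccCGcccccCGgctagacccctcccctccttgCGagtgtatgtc
IRAK4: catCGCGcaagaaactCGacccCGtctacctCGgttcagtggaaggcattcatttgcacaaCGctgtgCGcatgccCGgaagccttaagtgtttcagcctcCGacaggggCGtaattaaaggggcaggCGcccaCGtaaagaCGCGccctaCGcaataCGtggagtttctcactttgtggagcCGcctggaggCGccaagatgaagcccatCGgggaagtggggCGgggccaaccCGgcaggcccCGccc
These stretches hold 24, 24, 16 and 22 CpG dinucleotides, against a median of 11 over 27305 RefSeq promoters. Their GC contents are 72%, 69.6%, 62.4% and 61.6%, against a median of 58%. A number of CpG above the median is not particular to these genes. The number was 43 in IRAK1, which was not called in any comparison, 22 in IRAK3 and 19 in MYD88, which fell under CC-885, and 37 in PELI2, which rose. By the GENCODE starts, the stretches of IRAK3 and PELI2 lie inside the gene, and those of IRAK1 and MYD88 hold the start.

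Motifs were searched on both strands of the windows from 250 bases before to 50 bases after the start, which the RefSeq table holds for 9 of the 10 genes, TIRAP being the gene without an entry. The letters searched were TGANTCA for AP-1 and TGATGNAA for C/EBP-ATF, and an NF-kB consensus was also searched. They occur in 7.76%, 3.67% and 5.72% of all promoters. The single match among the members was an AP-1 match in IRAK1, a gene that was not called in any comparison below. The 30 bases on the minus strand of chrX:154019897-154019926 end with this match, shown in capitals. The match spans the RefSeq start, and GENCODE places the start further upstream, at 154019980, so that these bases lie inside its gene body.
IRAK1: acgaggccggctcgaaggggaagTGAGTCA
No match says only that these letters are not in the window.

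IRAK4, the kinase that phosphorylates the other IRAKs in the myddosome, lies on the plus strand of chromosome 12 (GRCh38, 43758944 to 43789543). With DMSO, the wild-type libraries held 53.9, 50.9 and 51.6 CPM (TMM-scaled, as are all levels of genes below) and the knockout libraries 7.28, 8.72 and 8.78. With CC-885, the wild-type libraries held 65.4, 69.4 and 83.6 CPM and the knockout libraries 31.7, 30.8 and 29.6. Every knockout library was below every wild-type library, and within each genotype the CC-885 libraries were above the DMSO libraries. The knockout differed from wild type by a log2 fold change of -2.66 ± 0.10 (SE) under DMSO (edgeR adjusted p = 1.7e-11) and by -1.25 ± 0.09 under CC-885 (adjusted p = 1.1e-08). Transcript was thus still counted in the knockout. Which exon the guide targets is not given in the sources used here, and counts per gene do not show whether the remaining transcript is edited. CC-885 raised IRAK4 by 0.48 ± 0.09 log2 in wild type and by 1.89 ± 0.10 in knockout. Without replicate 3 of wild type under CC-885 the rise in wild type was 0.37 and was called, the difference between genotypes under CC-885 was -1.13 and the difference in response was 1.52.

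The IRAK4 difference was not alone in its stretch of chromosome 12. Among 13 tested neighbours within 2 Mb on either side, a window chosen after values were seen, 12 were called lower in knockout under DMSO and 12 under CC-885, and 0 were called higher. The share of all genes called lower was 28.4% and 30.8%. The neighbours' median log2 fold change was -1.30 under DMSO, against -0.06 over all genes, and -1.06 under CC-885. RACGAP1P was the neighbour not called. Around IRAK3, which lies on chromosome 12 as well, 11 of 14 neighbours were called lower under DMSO and 10 of 14 under CC-885, with medians of -0.63 and -0.44. Around TRAF6, on chromosome 11, 0 of 10 neighbours were called lower under either treatment. Called higher were 7 of 10 under DMSO and 4 of 10 under CC-885, beside 21.3% and 27.8% of all genes. Around the remaining members, those called lower under DMSO ran from 1 of 17 for PELI1 to 16 of 66 for TOLLIP. Likeness to IRAK4 over the 12 libraries was measured as the root mean square difference of centred log2 CPM among 10679 genes. ETNK1 (0.34), also on chromosome 12, was among the 2 nearest genes. Its group means with DMSO were 87.4 CPM in wild type and 26.2 in knockout, and with CC-885 they were 176 and 70.9. The part of the region in the lower IRAK4 level was not tested.

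**Figure D1:**
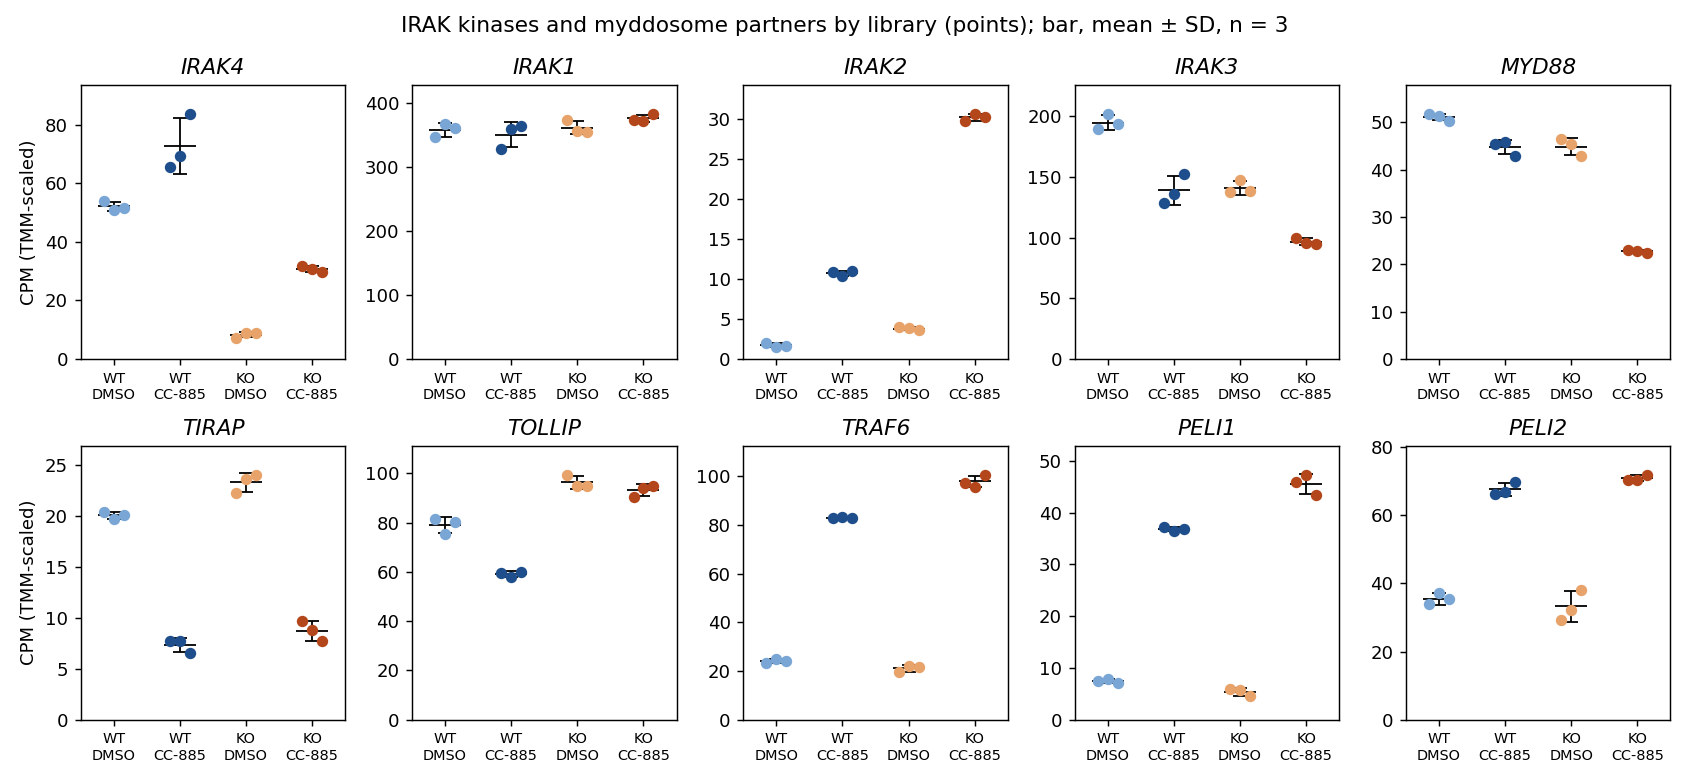
Level of each of the 10 genes in each library (points, TMM-scaled CPM on a linear axis from 0), with the mean and SD of 3 libraries per group. IRAK4 is lowest in the knockout under DMSO at 7.28 to 8.78 CPM, IRAK2 is highest in the knockout under CC-885 at 29.8 to 30.6 CPM, and IRAK1 stays between 328 and 382 CPM.

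IRAK1, the kinase that IRAK4 activates and that hands the signal to TRAF6, was the most abundant member and the one that did not pass the test in any comparison. It lies on the minus strand of chromosome X (154010500 to 154019980). Wild-type libraries held 346, 366 and 360 CPM with DMSO and 328, 359 and 363 with CC-885. Knockout libraries held 373, 356 and 353 CPM with DMSO and 373, 372 and 382 with CC-885. The treatments overlapped in each genotype and the genotypes overlapped with DMSO, while with CC-885 the knockout libraries were all the higher. The log2 fold change under CC-885 was -0.03 (95% interval -0.15 to 0.09) in wild type and 0.06 (-0.06 to 0.17) in knockout. Between genotypes it was 0.01 (-0.10 to 0.13) under DMSO and 0.10 (-0.01 to 0.22) under CC-885. With upper-quartile scaling the last of these was called, at 0.15 with an edgeR adjusted p of 0.0321.

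IRAK2, which can take the place of IRAK1 in the myddosome, was the IRAK with the lowest level per kb of exon in both DMSO groups and in wild type under CC-885, though not in knockout under CC-885. It lies on the plus strand of chromosome 3 (10164865 to 10243743). Wild-type libraries held 2.03, 1.53 and 1.66 CPM with DMSO and 10.9, 10.3 and 10.96 with CC-885. Knockout libraries held 3.98, 3.83 and 3.65 CPM with DMSO and 29.8, 30.6 and 30.3 with CC-885. No group overlapped another, and the order was wild type under DMSO, knockout under DMSO, wild type under CC-885, knockout under CC-885. Knockout exceeded wild type by 1.14 ± 0.11 log2 under DMSO (edgeR adjusted p = 3.3e-07) and by 1.49 ± 0.09 under CC-885 (adjusted p = 1.0e-09). CC-885 raised it by 2.63 ± 0.10 in wild type and 2.98 ± 0.09 in knockout. The difference between those responses, 0.36 ± 0.14, missed the threshold (adjusted p = 0.0582), and passed it in 4 of 21 alternative analyses: without replicate 3 of wild type under CC-885 (0.37, adjusted p = 0.0425), without replicate 2 of wild type under DMSO (0.44, adjusted p = 0.0322), with the library-name prefix as covariate (0.36, adjusted p = 0.0453) and in the libraries of prefix 51 alone (0.57, adjusted p = 0.0171).

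IRAK3, also called IRAK-M and known to hold back IRAK1 and IRAK4 signalling in monocytes and macrophages, moved the other way. The gene is on the plus strand of chromosome 12 (66188879 to 66254622). The level in wild type was 190, 202 and 193 CPM with DMSO and 129, 136 and 152 with CC-885. The level in knockout was 137, 148 and 138 CPM with DMSO and 100.0, 95.6 and 94.6 with CC-885. Wild type under DMSO was highest and knockout under CC-885 lowest, with the other 2 groups overlapping between them. CC-885 lowered IRAK3 by a log2 fold change of -0.49 ± 0.06 in wild type and -0.55 ± 0.06 in knockout (edgeR adjusted p = 3.8e-06 and 8.2e-07). Knockout was below wild type by -0.46 ± 0.06 under DMSO and -0.52 ± 0.06 under CC-885. The responses in the genotypes differed by -0.06 (95% interval -0.25 to 0.13), which did not pass the test. Without replicate 3 of wild type under CC-885 the fall in wild type was -0.56, the genotype difference under CC-885 -0.45 and the difference in response 0.01. AC078889.1 and RBMS1P1 overlap the gene body of IRAK3 on the opposite strand, by 2878 and 1156 bases. Overlap of exons was not examined. Since the strand setting of the counting is not given, reads from any shared exons cannot be told apart.

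To compare levels between genes, CPM was divided by the length of each gene's merged exons in GENCODE v29, which may differ from the authors' annotation. Per kb, IRAK1 ranked highest of the 10 genes in every group, at 89.3 ± 2.58 CPM per kb (SD, n = 3) in wild type under DMSO. IRAK2 ranked lowest in both DMSO groups, at 0.500 CPM per kb in wild type and 1.10 in knockout, and seventh in knockout under CC-885 at 8.69. Of the summed per-kb level of the 4 kinases, IRAK1 accounted for 75.3% ± 0.443 (SD, n = 3) in wild type under DMSO, 74.5% ± 1.23 under CC-885, and 84.4% ± 0.798 and 79.8% ± 0.464 in knockout under DMSO and CC-885. In the same order, the share of IRAK2 was 0.423%, 2.63%, 1.03% and 7.38%. That of IRAK3 was 16.4%, 11.8%, 13.2% and 8.22%. That of IRAK4 was 7.82%, 11%, 1.38% and 4.64%. In knockout under CC-885 the share of IRAK2 was thus above that of IRAK4, and in both wild-type groups it was below. These are shares of transcript, not of protein.

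**Figure D2:**
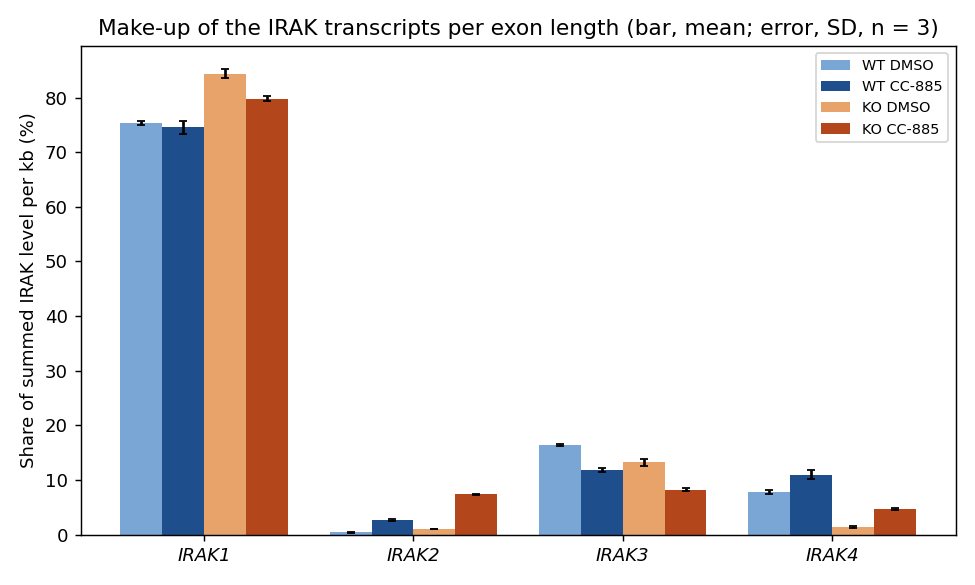
Share of each IRAK gene in the summed CPM per kb of the 4 IRAK genes, in percent, by group (bars, means of 3 libraries; error bars, SD). IRAK1 holds 74.5% to 84.4% in every group, and IRAK2 goes from 0.423% in wild type under DMSO to 7.38% in knockout under CC-885.

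MYD88, the adaptor that nucleates the myddosome, was lower in the knockout under CC-885 than in any other group. The gene sits on the plus strand of chromosome 3 (38138478 to 38143022). Wild-type libraries held 51.7, 51.4 and 50.4 CPM with DMSO and 45.5, 45.8 and 43.0 with CC-885. Knockout libraries held 46.4, 45.4 and 42.9 CPM with DMSO and 23.0, 22.8 and 22.5 with CC-885. The last group was well below the rest, and wild type under CC-885 overlapped knockout under DMSO. CC-885 lowered MYD88 by a log2 fold change of -0.19 ± 0.06 in wild type (edgeR adjusted p = 0.00794) and -0.98 ± 0.06 in knockout (adjusted p = 2.5e-10), and the responses differed by -0.79 ± 0.08 (adjusted p = 6.4e-06). Knockout was below wild type by -0.98 ± 0.06 under CC-885. Under DMSO the difference of -0.19 ± 0.06 (adjusted p = 0.0143) was not called in 7 of 22 alternative analyses, among them upper-quartile scaling (-0.06, adjusted p = 0.436) and leaving out replicate 3 of knockout under DMSO (-0.16, adjusted p = 0.0676).

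TIRAP, which docks MYD88 to TLR2 and TLR4 at the membrane, was the member that CC-885 lowered most. It maps to the plus strand of chromosome 11 (126283065 to 126298845). The level in wild type was 20.4, 19.7 and 20.2 CPM with DMSO and 7.72, 7.74 and 6.53 with CC-885. The level in knockout was 22.3, 23.7 and 24.0 CPM with DMSO and 9.67, 8.81 and 7.71 with CC-885. The CC-885 libraries of both genotypes were far below the DMSO libraries, and the genotypes overlapped under CC-885. The log2 fold change was -1.45 ± 0.09 in wild type (edgeR adjusted p = 9.0e-10) and -1.42 ± 0.09 in knockout (adjusted p = 6.4e-10). The responses differed by 0.04 (95% interval -0.24 to 0.31). Knockout was above wild type under CC-885 by 0.25 ± 0.10 (adjusted p = 0.0340), a call lost in 7 of 22 alternative analyses. It was lost without replicate 3 of wild type under CC-885 (0.18, adjusted p = 0.113) and without replicate 1 of knockout under CC-885 (0.17, adjusted p = 0.173) or its replicate 2 (0.25, adjusted p = 0.0812). It was also lost in the libraries of prefix 51 (0.17, adjusted p = 0.136), with only the groups compared (0.26, adjusted p = 0.0941), without the filter on low counts (0.23, adjusted p = 0.0785) and with a block by the number in the library name (0.26, adjusted p = 0.0601). With DMSO the genotypes did not overlap, and the difference of 0.22 ± 0.09 missed the threshold (adjusted p = 0.0555) but passed it in 9 of 22 alternative analyses. These included upper-quartile scaling (0.34, adjusted p = 0.00664), leaving out replicate 3 of wild type under CC-885 (0.22, adjusted p = 0.0201) and leaving out replicate 1 or 3 of knockout under CC-885 (0.22 each, adjusted p = 0.0483 and 0.0412). AP001318.1 and AP001318.2 overlap the gene body of TIRAP on the opposite strand, by 1333 and 4548 bases. Overlap of exons was not examined, and reads from any shared exons cannot be told apart here.

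TOLLIP, which binds IRAK1 and holds it inactive, was higher in knockout than in wild type under both treatments. Its place is the minus strand of chromosome 11 (1274371 to 1309654). Wild-type libraries held 81.3, 75.6 and 80.3 CPM with DMSO and 59.8, 57.9 and 60.1 with CC-885. Knockout libraries held 99.3, 94.7 and 95.0 CPM with DMSO and 90.4, 93.8 and 95.0 with CC-885. The wild-type groups were apart from each other and the knockout groups overlapped. Knockout exceeded wild type by 0.29 ± 0.05 log2 under DMSO (edgeR adjusted p = 0.00039) and 0.65 ± 0.05 under CC-885 (adjusted p = 5.2e-08). CC-885 lowered TOLLIP by -0.42 ± 0.05 in wild type. In knockout the change was -0.05 (95% interval -0.16 to 0.06) and was not called, though with upper-quartile scaling it was (-0.20, adjusted p = 0.0044), and with library size alone as well (-0.15, adjusted p = 0.0219). The responses differed by 0.37 ± 0.08 (adjusted p = 0.0016).

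TRAF6, the ubiquitin ligase that relays the signal from the IRAKs to TAK1, was among the members that rose most under CC-885. The gene is on the minus strand of chromosome 11 (36487027 to 36510272). With DMSO, wild-type libraries held 23.2, 25.1 and 24.0 CPM and knockout libraries 19.6, 22.0 and 21.7. With CC-885, wild-type libraries held 82.8, 83.4 and 82.9 CPM and knockout libraries 97.5, 95.7 and 101. The CC-885 libraries were above all DMSO libraries, and the genotypes changed places: knockout was the lower under DMSO and the higher under CC-885, without overlap in either. CC-885 raised it by 1.78 ± 0.06 log2 in wild type and 2.21 ± 0.06 in knockout, and these responses differed by 0.43 ± 0.09 (edgeR adjusted p = 0.00121). Knockout minus wild type was -0.19 ± 0.06 under DMSO (adjusted p = 0.0181) and 0.24 ± 0.06 under CC-885 (adjusted p = 0.00276). The first was not called in 8 of 22 alternative analyses, among them upper-quartile scaling (-0.07, adjusted p = 0.391) and leaving out replicate 2 of wild type (-0.16, adjusted p = 0.0808) or replicate 1 of knockout (-0.14, adjusted p = 0.0840) under DMSO. Per kb of exon, TRAF6 went from eighth of the 10 genes in wild type under DMSO, at 4.95 CPM per kb, to the second place under CC-885, at 17.05.

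PELI1 and PELI2 encode Pellino proteins, ubiquitin ligases that bind and modify the IRAKs. PELI1, on the minus strand of chromosome 2 (64092652 to 64144454), held 7.44, 7.95 and 7.18 CPM in the wild-type and 5.86, 5.80 and 4.53 CPM in the knockout libraries with DMSO. With CC-885 the wild-type libraries held 37.3, 36.4 and 36.9 CPM and the knockout libraries 45.9, 47.3 and 43.4. As for TRAF6, knockout was below wild type under DMSO and above it under CC-885, with no overlap. The genotype differences were -0.48 ± 0.10 log2 under DMSO (edgeR adjusted p = 0.000639) and 0.30 ± 0.08 under CC-885 (adjusted p = 0.00529), and the responses to CC-885, 2.29 ± 0.09 in wild type and 3.07 ± 0.09 in knockout, differed by 0.78 ± 0.13 (adjusted p = 0.000236). AC012368.1 overlaps the gene body of PELI1 on the opposite strand by 1216 bases. Overlap of exons was not examined, and reads from any shared exons cannot be told apart here.

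PELI2, on the plus strand of chromosome 14 (56117814 to 56301526), held 33.8, 37.2 and 35.3 CPM in the wild-type and 29.2, 32.3 and 38.1 CPM in the knockout libraries with DMSO. With CC-885 the wild-type libraries held 66.3, 66.7 and 69.7 CPM and the knockout libraries 70.4, 70.2 and 71.7. The treatments did not overlap in either genotype, and the genotypes overlapped under DMSO. CC-885 raised PELI2 by 0.93 ± 0.08 log2 in wild type (edgeR adjusted p = 3.1e-08) and 1.09 ± 0.08 in knockout (adjusted p = 3.0e-09). Knockout minus wild type was -0.09 (95% interval -0.27 to 0.08) under DMSO and 0.07 (-0.10 to 0.24) under CC-885, and neither passed the test. Without replicate 3 of knockout under DMSO, its highest library, the first was called (-0.20, adjusted p = 0.0312), as was the difference in response (0.27, adjusted p = 0.0403). AL138995.1 overlaps the gene body of PELI2 on the opposite strand by 177 bases, with the same limit.

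As a group, 9 of the 10 genes were called under CC-885 in wild type, 5 higher and 4 lower, where 72.3% of all genes were called, 35.7% higher and 36.6% lower. In knockout 8 were called, 5 higher and 3 lower, where 78.9% of all genes were called, 38.9% higher and 40.0% lower. At least 2-fold changes were called for 4 members in wild type (29.3% of all genes) and 6 in knockout (41.6%). The 4 in wild type, IRAK2, TRAF6, PELI1 and TIRAP, also changed at least 2-fold in the same direction in knockout, as did 25.5% of all genes. The libraries of the treatments did not overlap for 9 members in wild type (73.8% of all genes) and 8 in knockout (81.9%). Called in the same direction in both genotypes were 8 members (63.9% of all genes), and called in opposite directions 0 (1.21%). Most genes were called under CC-885 in both genotypes. With 10 members, the share called is not read as a trait of the members in either genotype. The median log2 fold change of the members was 0.23 in wild type and 0.57 in knockout, against -0.03 over all genes in each. The comparisons in a genotype and between genotypes share libraries.

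**Figure D3:**
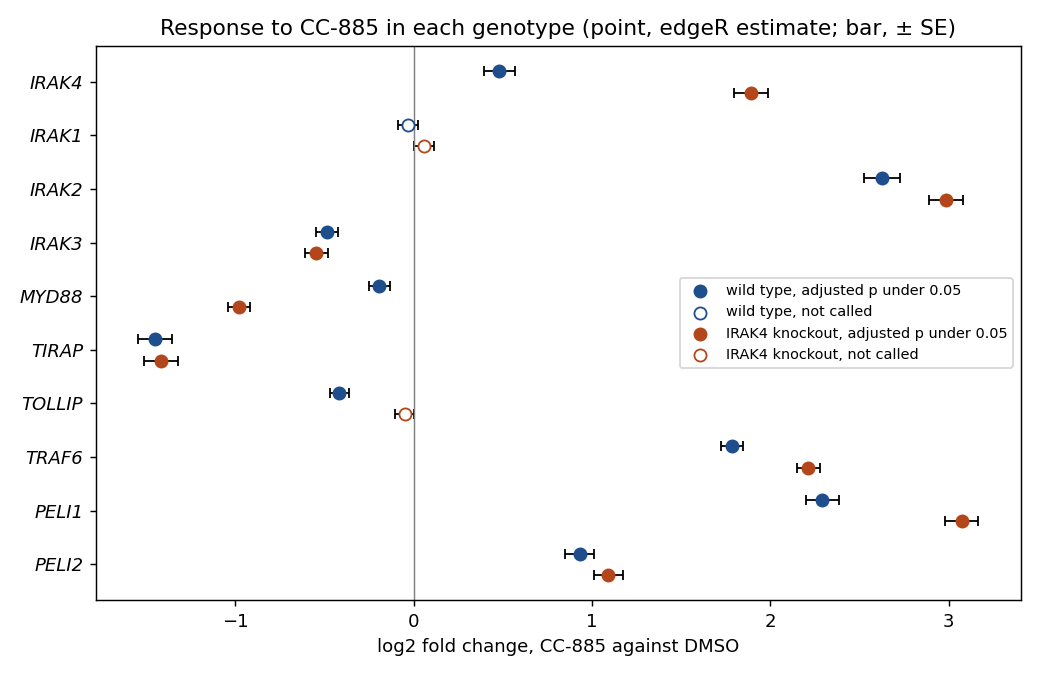
Log2 fold change under CC-885 against DMSO for the 10 genes in wild type and in IRAK4 knockout, with error bars as SE from edgeR and open points where not called. IRAK2, PELI1 and TRAF6 rose in both genotypes, TIRAP fell by -1.45 and -1.42, and IRAK1 stayed near 0.

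Between genotypes, 7 members were called under DMSO, 2 higher (IRAK2 and TOLLIP) and 5 lower in knockout, where 49.7% of all genes were called, 21.3% higher and 28.4% lower. That split depended on the scaling: with upper-quartile factors 3 members were higher and 3 lower, and over all genes 4685 were higher and 3036 lower in place of 3415 and 4543. Under CC-885, 8 members were called, 5 higher and 3 lower, where 58.6% of all genes were called, 27.8% higher and 30.8% lower. The median of the members was -0.14 under DMSO and 0.17 under CC-885, against -0.06 and -0.02 over all genes. The genotypes did not overlap for 8 members under DMSO (59.8% of all genes) and 9 under CC-885 (63.1%). IRAK2 was at least 2-fold higher and IRAK4 at least 2-fold lower in knockout under both treatments, where 13.7% and 15.5% of all genes changed that much. The test of the difference between genotypes in the response to CC-885 called 5 members, 4 higher and 1 lower, where 34.7% of all genes were called, 17.9% higher and 16.8% lower. IRAK4 alone differed at least 2-fold in response (6.01% of all genes). Upper-quartile factors moved the split over all genes from 2871 higher and 2691 lower to 2168 and 3291. The members called were IRAK4, PELI1, TRAF6 and TOLLIP with a more positive change in knockout, and MYD88 with a more negative one. Library names begin with 51 or 52, a prefix whose meaning is not given. In the 8 libraries of prefix 51, wild type under DMSO has 1 library, which is assumed to vary like the other groups. Knockout minus wild type was there -0.18 for MYD88 and -0.17 for TRAF6 under DMSO, and 0.17 for TIRAP under CC-885. The difference in response of IRAK2 was 0.57. With the prefix as covariate 9, 8, 7, 8 and 6 members were called in the 5 comparisons. Over all 16010 genes the numbers were 11835, 12811, 8273, 9685 and 6408.

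**Figure D4:**
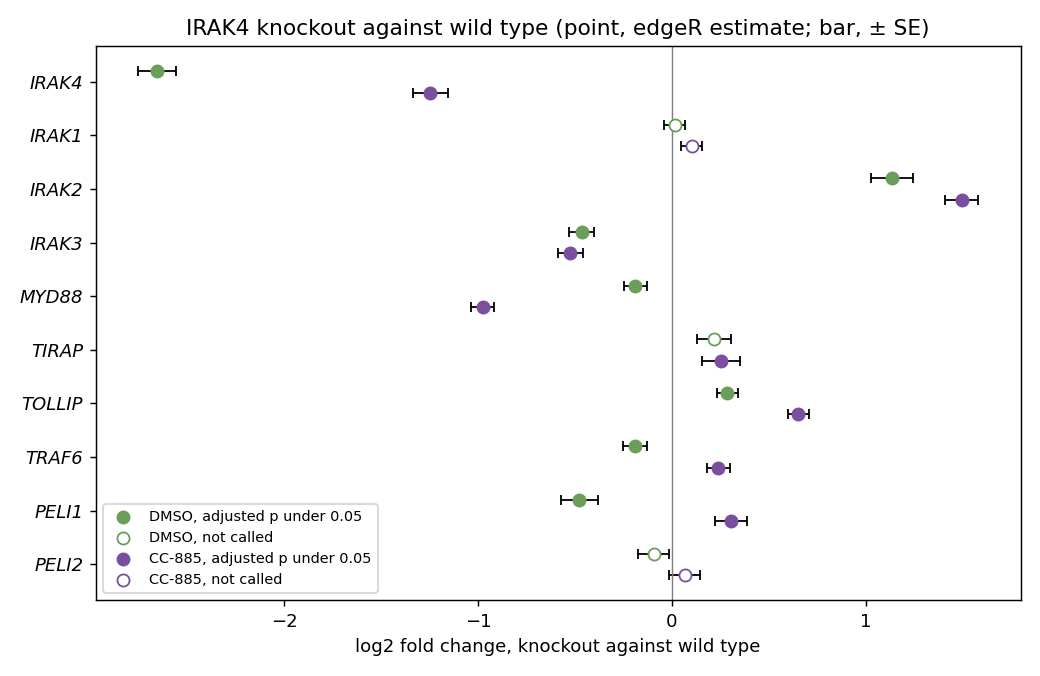
Log2 fold change of IRAK4 knockout against wild type for the 10 genes under DMSO and under CC-885, with error bars as SE from edgeR and open points where not called. IRAK4 is at -2.66 and -1.25, IRAK2 at 1.14 and 1.49, and PELI1 and TRAF6 lie below 0 under DMSO and above 0 under CC-885.

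The difference between a member and its nearest genes depends on how far the member itself moved. The root mean square spread about its own mean was 0.056 for IRAK1 and 1.55 for IRAK2. The values are therefore not compared between members. The nearest member to TRAF6 was PELI1, with a root mean square difference of 0.38 over the 12 libraries, and the nearest to IRAK3 was MYD88, with 0.21. Among all genes, the nearest were TRIM36 (0.07) and RAB5A (0.08) for TRAF6, ING3 (0.12) and EIF1 (0.13) for PELI1, and DAAM1 (0.23) and AHR (0.23) for IRAK2. IL17RA (0.07) and IL6R (0.12), both cytokine receptors, were nearest to TIRAP. For IRAK3 they were PWP1 (0.06) and B3GALNT2 (0.07), for MYD88 CC2D1A (0.07) and GMPR2 (0.07), and for TOLLIP ST3GAL4 (0.06) and SGK223 (0.09). PWP1 lies on chromosome 12, as IRAK3 does, and ST3GAL4 on chromosome 11, as TOLLIP does. The part of position in these likenesses was not tested. REST (0.07) was among the 2 nearest to PELI2. DCTN5 (0.053) and PDSS2 (0.055) were nearest to IRAK1, at differences about as large as the spread of IRAK1 itself (0.056). Each value describes likeness over the same 12 libraries in 4 groups.

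Around the myddosome, 13 of 16 receptor genes were tested, and TLR10, IL18R1 and IL1RL1 were too low. Under CC-885, 6 were called higher and 5 lower in wild type, beside 35.7% and 36.6% of all genes, and 5 higher and 5 lower in knockout, beside 38.9% and 40.0%. TLR2, which senses bacterial lipoproteins with TIRAP as bridge, fell from 102 ± 5.23 to 34.7 ± 1.31 CPM (SD, n = 3) in wild type and from 96.7 ± 6.89 to 26.9 ± 2.24 CPM in knockout. TLR4, the lipopolysaccharide receptor, fell by -0.49 ± 0.08 log2 in wild type and -0.52 ± 0.08 in knockout, and was higher in knockout than in wild type by 1.02 ± 0.08 under DMSO (edgeR adjusted p = 3.1e-08) and 0.99 ± 0.08 under CC-885. Its co-receptor CD14 was low, at 1.19 to 3.82 CPM as group means, and IL1RAP, the shared interleukin-1 receptor chain, rose by 1.24 ± 0.09 and 1.39 ± 0.09. Under DMSO 5 receptors were higher and 0 lower in knockout, beside 21.3% and 28.4% of all genes. With CC-885, 7 were higher and 5 lower in knockout, beside 27.8% and 30.8%. Without replicate 3 of wild type under CC-885, 6 were higher and 0 lower under DMSO, and 6 higher and 5 lower under CC-885. The response was more positive in knockout for 0 and more negative for 7, beside 17.9% and 16.8% of all genes, and the 7 were 4 without replicate 3 of wild type under CC-885. CD14 had a difference in response of -0.72 with it (edgeR adjusted p = 0.0426) and -0.48 without it (adjusted p = 0.0915).

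Among 9 tested adaptors outside the myddosome, 3 were higher and 5 lower under CC-885 in wild type, beside 35.7% and 36.6% of all genes. In knockout 4 were higher and 4 lower, beside 38.9% and 40.0%. TICAM1, which couples TLR3 and TLR4 to signalling without MYD88, rose by 1.09 ± 0.07 log2 in wild type and 1.65 ± 0.07 in knockout, a difference of 0.55 ± 0.10 (edgeR adjusted p = 0.00038). SARM1 was below 1 CPM as a mean in every group and was not called in any comparison. TICAM2 was too low to test.

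All 22 genes of the kinase and ubiquitin steps below TRAF6 were tested. Under CC-885, 10 were higher and 6 lower in wild type, beside 35.7% and 36.6% of all genes. In knockout 8 were higher and 6 lower, beside 38.9% and 40.0%. MAP3K7, which encodes TAK1, rose from 97.0 ± 4.0 to 194 ± 5.86 CPM (SD, n = 3) in wild type and from 105 ± 5.82 to 262 ± 5.02 CPM in knockout. TAB2, its ubiquitin-binding partner, rose by 1.16 ± 0.05 and 1.75 ± 0.05 log2. UBE2N, the conjugating enzyme that works with TRAF6, was lower in knockout by -1.16 ± 0.08 under DMSO and -1.12 ± 0.08 under CC-885. Its changes under CC-885, -0.17 ± 0.08 in wild type and -0.14 ± 0.08 in knockout, were not called with all libraries and were called without replicate 3 of wild type under CC-885 (-0.29, edgeR adjusted p = 6.1e-05, and -0.13, adjusted p = 0.0149). IKBKG, the regulatory subunit of the IKK complex, was lower in knockout than in wild type by -0.47 ± 0.12 under DMSO and -0.36 ± 0.12 under CC-885. It was not called under CC-885 in either genotype. In knockout 10 of the 22 were lower and 1 higher than in wild type under DMSO, beside 28.4% and 21.3% of all genes. Under CC-885, 12 were lower and 5 higher, beside 30.8% and 27.8%. Without that library the numbers higher were 3 and 5, and those lower 11 and 13. Whether any of the 22 lie in stretches of chromosome lowered in knockout, like those around IRAK4 and IRAK3, was not examined.

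Of 18 tested brakes on the pathway, 13 were higher and 3 lower under CC-885 in wild type, beside 35.7% and 36.6% of all genes. In knockout 13 were higher and 4 lower, beside 38.9% and 40.0%. Their median log2 fold change was 0.66 and 0.86, against -0.03 over all genes. TNFAIP3, the deubiquitinase A20 that acts on TRAF6, rose from 9.59 ± 1.24 to 64.2 ± 3.69 CPM in wild type and from 12.2 ± 1.05 to 82.1 ± 1.19 CPM in knockout, by 2.74 ± 0.09 and 2.75 ± 0.09 log2 (edgeR adjusted p = 4.0e-13 and 1.5e-13). NFKBIA, the inhibitor that keeps NF-kB in the cytoplasm, rose by 0.42 ± 0.07 and 0.78 ± 0.07. SIGIRR, a receptor that restrains interleukin-1 signalling, fell by -0.33 ± 0.08 and -0.74 ± 0.08. IL1R2 was too low to test. In knockout 4 brakes were higher and 9 lower than in wild type under DMSO, beside 21.3% and 28.4% of all genes. Under CC-885, 7 were higher and 6 lower, beside 27.8% and 30.8%.

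**Figure D5:**
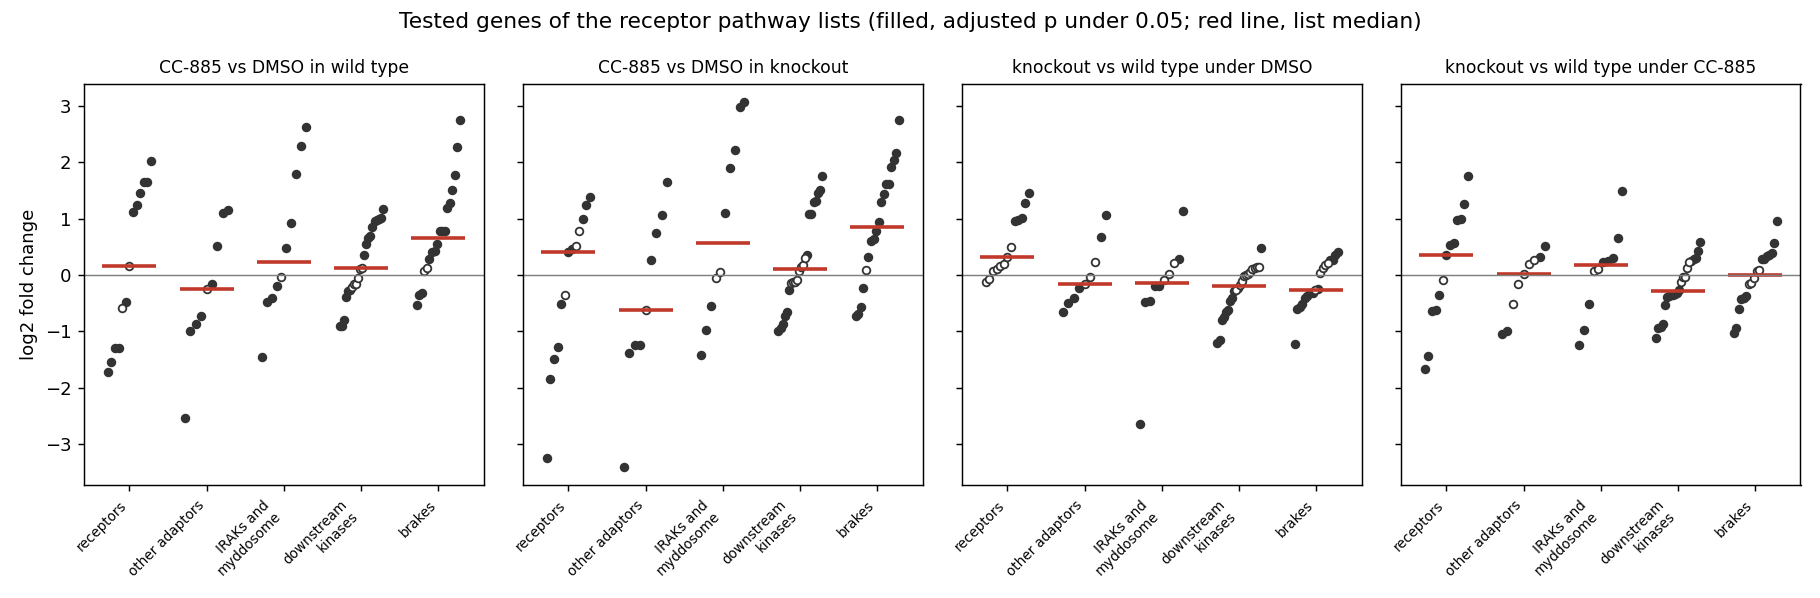
Log2 fold change of each tested gene (points, filled where called) in the 10 myddosome genes and in the lists of receptors, other adaptors, downstream kinases and brakes, with 1 panel per comparison and list medians as red lines. Under CC-885 the brakes have the highest medians, 0.66 in wild type and 0.86 in knockout, with TNFAIP3 at 2.74 and 2.75.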

How the data were processed

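The authors deposited raw counts per gene symbol for all 12 libraries, with no normalization. Per the labels, polyA RNA was made into TruSeq libraries and sequenced as read pairs. The submitters' processing notes name featureCounts 1.5.2, HISAT2 2.0.5, FastQC 0.11.2 and the build GRCh38. A mouse build appears in the labels' extraction text, but the symbols are human. Not given in the sources used here are the strand setting, the annotation and how reads with several matches were handled. The cell line tag differs between samples, and the titles, which all name THP1, were followed.

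From the counts, symbols were kept by filterByExpr by group (16010 symbols, 99.98% of counts) and scaled by TMM, so changes are relative to the bulk of genes and are not amounts per cell. edgeR 4.0.16 (R 4.3.3) fitted a robust quasi-likelihood model to all 12 libraries with 1 coefficient per group. P-values were adjusted by Benjamini-Hochberg over all 16010 symbols in each of 5 comparisons and called under 0.05. Each SE comes from the F statistic. The biological coefficient of variation was 0.0899. Precision rests on 3 libraries a group. The script was tested on data simulated for CC-885 against DMSO in wild type. Of 100 genes changed by 1 log2 unit 75% were called, of 100 changed by 2 units 96%, and of unchanged genes 0.0386%. Far fewer genes were changed there than were called here, so the simulation does not test the scaling.

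The 10 genes and the pathway lists were chosen with earlier results of these data known. All 10 members are named in every comparison, with 13 set pathway genes and the 2 genes nearest to each member among those with a mean of at least 5 CPM. Some genes that these rules or the marker lists hold are not reported here. Alternatives were DESeq2 1.42.0, other scalings and filters, each library left out, blocks and the library prefix.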

Additional observations from a re-analysis of the deposited data

Results flagged for a closer look

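For 12 of the genes named above the response to CC-885 differed between knockout and wild type by the test of the difference itself, in 5 of the 10 members and 7 of the 13 set pathway genes, where 34.7% of all genes did so. The difference in log2 fold change, knockout minus wild type, was 1.41 ± 0.13 for IRAK4, -0.79 ± 0.08 for MYD88, 0.78 ± 0.13 for PELI1, 0.43 ± 0.09 for TRAF6 and 0.37 ± 0.08 for TOLLIP. It was 0.59 ± 0.07 for TAB2, 0.55 ± 0.10 for TICAM1, 0.36 ± 0.10 for NFKBIA and 0.32 ± 0.08 for MAP3K7. It was -0.72 ± 0.26 for CD14, -0.41 ± 0.12 for SIGIRR and -0.29 ± 0.10 for TLR2. The edgeR adjusted p was highest for CD14, at 0.0426, and TLR2, at 0.0404. Without replicate 3 of wild type under CC-885, CD14 was at -0.48 (adjusted p = 0.0915) and the other 11 stayed called. All knockout libraries under CC-885 carry the library prefix 51, while wild type under DMSO has 1 library with it, so prefix and group are partly joined.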

How the results depend on the processing

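In no comparison did the number of members called, or of all genes called, move by more than 1.5 times in any alternative, library left out included. Leaving out 1 library gave 9 to 9 members under CC-885 in wild type, 8 to 8 in knockout, 6 to 8 between genotypes under DMSO, 7 to 8 under CC-885 and 5 to 6 for the difference in response. Over all genes, in the same order, it gave 10995 to 11842, 12129 to 13203, 6822 to 9260, 8444 to 9845 and 4715 to 6872. Of 1090 values of single members under alternatives, 1037 kept direction and side of the threshold, 22 lost a call, 18 gained one and 13 changed sign, all 13 in values that were not called. Leaving out 1 library, the log2 fold change of IRAK1 was -0.059 to 0.014 under CC-885 in wild type and -0.00886 to 0.032 between genotypes under DMSO, where it was -0.00625 without replicate 1 of knockout. The difference in response was -0.11 to 0.012 for IRAK3 and -0.044 to 0.12 for TIRAP (-0.038 without replicate 3 of wild type under CC-885). With upper-quartile factors, IRAK1 under CC-885 in knockout was -0.091, PELI2 between genotypes under DMSO 0.028 and the TIRAP difference in response -0.043. With library size alone, IRAK1 was -0.041 and TIRAP -0.00806 in the same comparisons, and without the filter -0.00259 and -0.046. Among the pathway genes, IKBKG under CC-885 in wild type was 0.00267 without replicate 3 of that group. The cause was not tested. The median over all genes under upper-quartile factors was -0.10 and -0.18 under CC-885 in wild type and knockout, and 0.06 between genotypes under DMSO.

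The replicate block left 9, 8, 7, 8 and 5 members called in the 5 comparisons, as without it, and a block by the number in the library name left 9, 8, 5, 7 and 5. Over all genes the replicate block left 11638, 12682, 7994, 9396 and 5598 called. The block by library-name number left 10824, 12342, 6466, 8630 and 4807. Most same-numbered libraries did not deviate together: correlations over 18 pairs were -0.0338 to 0.232, with a median of 0.0153 and 2 over 0.1. Those 2 joined wild type under CC-885 with knockout under DMSO, at replicate 1 (0.210) and replicate 3 (0.232). Each of these pairs also shared its library prefix, and the cause was not tested. The numbers were not taken as pairing.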
